A study of Mus musculus with 38 samples.

Results

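Lipid mediators are short-lived signals that cells cut and oxidise from membrane fatty acids, and 9 genes that make, break down or sense them were followed here in sorted mouse microglia, the resident macrophages of the brain. The 9 genes were taken by symbol from the 53801 genes of the deposited count sheet. They were Alox5, Alox5ap and Ltc4s of the leukotriene branch, Ptgs1, Ptgs2, Hpgds and Hpgd of the prostaglandin branch, Ptafr, the receptor for platelet-activating factor, and the fatty acid receptor Gpr84. All 9 were protein-coding and passed the filter on low counts. They were picked by symbol, with earlier results of these data known.

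In both branches the starting point is arachidonic acid released from membranes. The lipoxygenase Alox5, helped by the membrane protein Alox5ap, turns it into leukotriene A4, which Ltc4s joins to glutathione to give leukotriene C4. The cyclooxygenases Ptgs1 and Ptgs2 turn it into prostaglandin H2, from which Hpgds makes prostaglandin D2, and Hpgd inactivates prostaglandins. Microglia carry Hpgds, Ptgs2 is the cyclooxygenase that inflammatory stimuli induce in many cells, and Gpr84 is known as a gene that myeloid cells raise when they are stimulated.

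Polyadenylated RNA was sequenced in 38 libraries of 5 groups: DNL919 on day 1, day 4 and day 7, with 8 libraries each, ATV:DNP02 with 8 and Vehicle with 6. DNL919 is taken as the activating antibody against human TREM2 on the antibody transport vehicle, a part that binds the human transferrin receptor, and ATV:DNP02 as its isotype control on the same vehicle. Mice received a single dose, 10 mg/kg for either antibody, and both control groups were collected on day 1, so day and antibody cannot be told apart where day 4 or day 7 is set against them. All mice were C57BL/6J, 3 months old, hemizygous for a bacterial artificial chromosome with human TREM2 in which exon 1 of TREML1 and exon 3 of TREML2 are deleted, and homozygous for a knock-in of human sequence in the transferrin receptor. Viable CD11b+ cells were sorted by flow cytometry. The labels give the tissue as cortex and hippocampus in one place and as brain without cerebellum in another. Of the 4 batches named in the labels, 1 and 2 held females and 3 and 4 males, so the sexes cannot be told apart from the batches that held them. The labels do not number replicates, and the numbers used here only name libraries.

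Total counts ranged from 1.65 to 6.42 M per library (M, mega), with group means of 4.17 M on DNL919 day 1, 2.77 M on day 4, 2.55 M on day 7, 2.34 M in ATV:DNP02 and 2.27 M in Vehicle. Noncoding transcripts took 3.37% ± 0.974, 5.25% ± 1.70 and 5.10% ± 1.72 of the counts on DNL919 day 1, 4 and 7 (SD, n = 8 each), against 7.05% ± 1.42 in ATV:DNP02 (SD, n = 8) and 7.81% ± 1.77 in Vehicle (SD, n = 6). This share moved with the treatment, and a fit that held it as a covariate was run. Since the share differs between the groups, that fit cannot tell it apart from the treatment and may take out part of the group difference. The summed level of 9 microglial markers had a median of 8859 CPM (counts per M of TMM-scaled library size) on DNL919 day 1, 13126 CPM on day 4 and 12993 CPM on day 7, against 16789 CPM in ATV:DNP02 and 15983 CPM in Vehicle. Markers of border-associated macrophages, which also carry prostaglandin enzymes, had medians of 230.5, 260.4 and 485 CPM on DNL919 day 1, 4 and 7, against 495 CPM in ATV:DNP02 and 445 CPM in Vehicle. The mast cell markers Tpsb2, Mcpt4, Ms4a2 and Fcer1a had 0 counts in all 38 libraries, and all 9 mast cell markers together stayed at or under 27.2 CPM. Neutrophil markers summed to 45400 CPM in DNL919 day 7 replicate 7 and 7199 CPM in DNL919 day 4 replicate 6, against at most 611 CPM elsewhere and group medians between 0 and 10.5 CPM. Those 2 libraries are kept below, and results that changed without them are named.

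On day 1 after DNL919, Gpr84 was about 10-fold higher than with ATV:DNP02, while 6 of the other 8 genes fell. The falls were largest for Ltc4s and Ptafr, intermediate for Hpgds and Hpgd, and smallest for Ptgs1 and Alox5ap. Alox5 and Ptgs2 did not pass the test. By limma-voom, with Benjamini-Hochberg adjustment over 11189 genes and a threshold of 0.05, 7 of the 9 genes were called, against a background of 35.8% of all genes tested (20.8% higher and 15.0% lower). The median log2 fold change was -0.51 over the 9 genes and 0.01 over all genes tested. With 16 libraries in the comparison and 9 related genes, the count describes these genes and was not tested as a set. In bulk RNA, fewer cells of a type and less RNA per cell cannot be told apart, which holds for every level below.

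**Figure D1:**
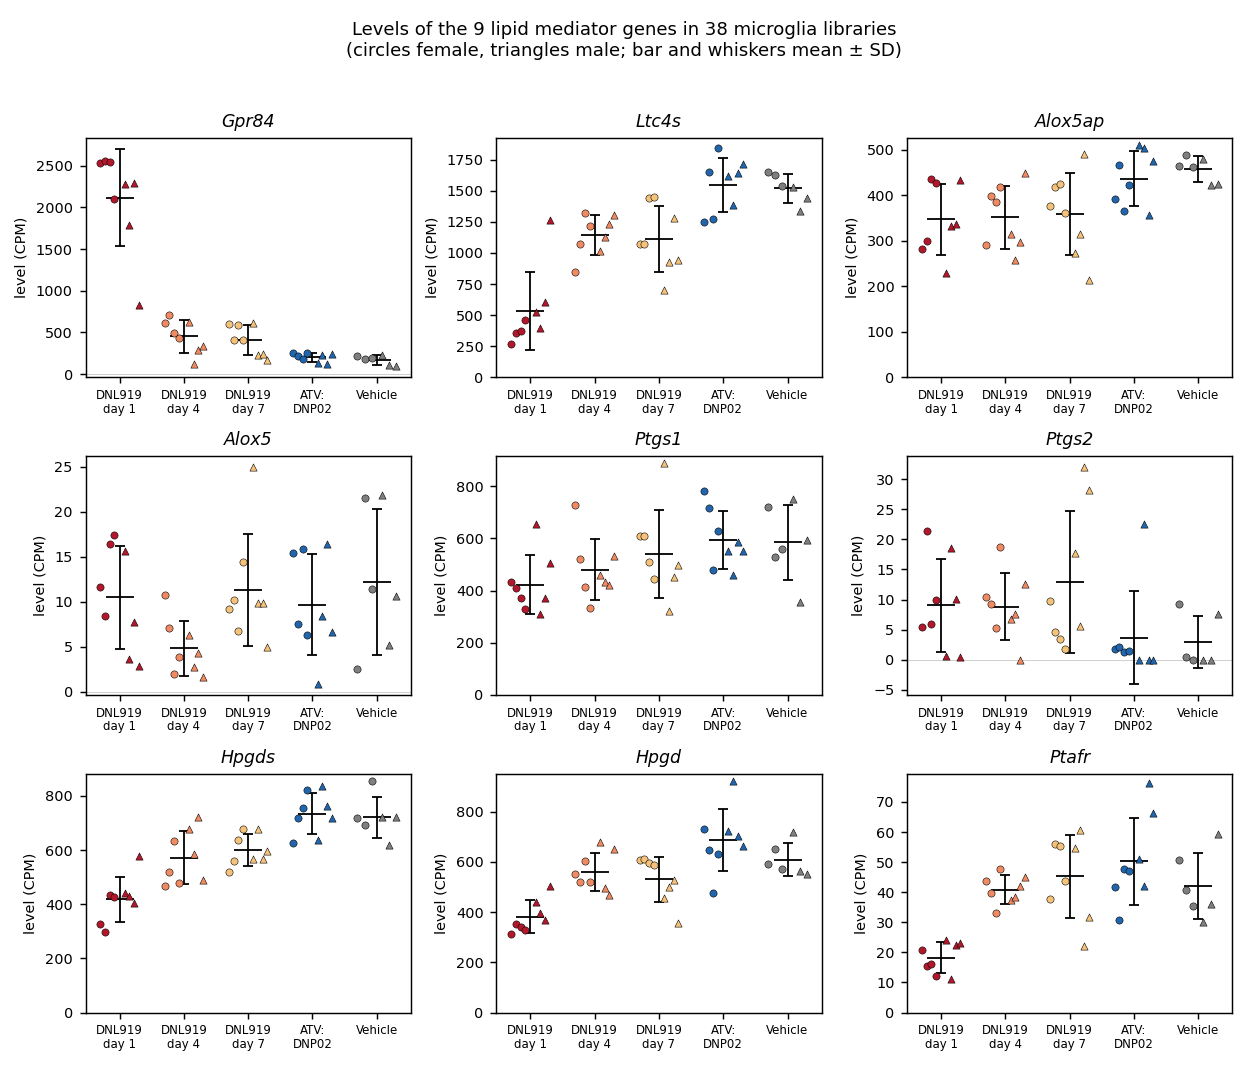
Level of each gene in every library (vertical axis, CPM, a separate scale for each gene) by group (horizontal axis); circles are females, triangles males, and the bar with whiskers is the mean ± SD. Gpr84 is highest on DNL919 day 1, with a median of 2286 CPM, and Ltc4s is lowest there, with a median of 429 CPM.

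Gpr84 (ENSMUSG00000063234, GRCm38 chromosome 15, 103308235 to 103310612, minus strand) encodes a G protein-coupled receptor of myeloid cells that responds to medium-chain fatty acids. Its lowest, median and highest levels were 831, 2286 and 2556 CPM on DNL919 day 1, against 117, 225 and 257 CPM in ATV:DNP02 and 93.3, 187 and 234 CPM in Vehicle. All 8 DNL919 day 1 libraries lay above all 14 control libraries. The log2 fold change was 3.38 ± 0.22 against ATV:DNP02 (SE; limma-voom adjusted p = 2.25e-16), a fold of 10.4, which ranked 208 from the top among the 11189 genes tested. Against Vehicle it was 3.62 ± 0.25 (SE; adjusted p = 7.21e-15), a fold of 12.3. Within the 4 batches the difference of mean log2(CPM + 0.5) from ATV:DNP02 was 3.44, 3.41, 3.51 and 3.04. After adjusting for the noncoding share the log2 fold change was 2.19 (adjusted p = 2.16e-10).

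DNL919 day 1 replicate 8, a male library of batch 4, stood apart from the other 7. It held 831 CPM of Gpr84, where the others held 1793 to 2556 CPM, and 1265 CPM of Ltc4s, where the others held 268 to 606 CPM. It also had the highest Hpgds (578 CPM) and Hpgd (506 CPM) and the lowest Ptgs2 (0.361 CPM) of its group, so that 5 of the 9 genes lay at the end of the group nearer the controls. Its noncoding share was 5.29%, against 2.33% to 3.81% in the other 7, and its total of 2.91 M counts was the lowest of the group. The part of these values in its levels was not tested. Without it the log2 fold change against ATV:DNP02 was 3.46 for Gpr84, -1.89 for Ltc4s, -0.92 for Hpgds and -0.94 for Hpgd. Then 7 of the 9 genes were called, as in the fit with it, in which 35.8% of all genes were.

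**Figure D2:**
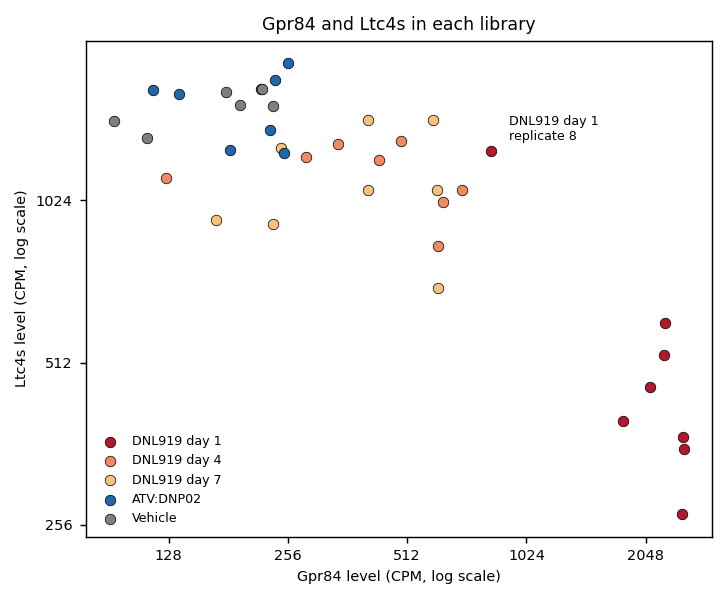
Level of Gpr84 (horizontal axis, CPM, log scale) and of Ltc4s (vertical axis, CPM, log scale) in each of the 38 libraries, coloured by group. DNL919 day 1 replicate 8, at 831 CPM of Gpr84 and 1265 CPM of Ltc4s, lies apart from the other 7 libraries of its group.

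Ltc4s (ENSMUSG00000020377, chromosome 11, 50236461 to 50238616, minus strand), which makes leukotriene C4 from leukotriene A4, had lowest, median and highest levels of 268, 429 and 1265 CPM on DNL919 day 1. The same values were 1253, 1629 and 1842 CPM in ATV:DNP02 and 1338, 1536 and 1650 CPM in Vehicle. On DNL919 day 1, 7 of 8 libraries lay below all ATV:DNP02 libraries, and 8 of 8 lay below all Vehicle libraries. Ltc4s fell with a log2 fold change of -1.69 ± 0.16 against ATV:DNP02 (± SE, with adjusted p = 1.65e-11), a ratio of 0.310, which ranked 453 from the bottom among the 11189 genes tested. Against Vehicle the log2 fold change was -1.68 ± 0.17 (SE; adjusted p = 3.46e-10). The within-batch differences from ATV:DNP02 were -2.22 and -1.88 in the female batches 1 and 2, and -1.70 and -0.94 in the male batches 3 and 4. The male effect minus the female effect was 0.74 ± 0.28 on the log2 scale (SE; unadjusted p = 0.0103, adjusted p = 0.867), the smallest unadjusted p of the 9 genes, and it did not pass. An antisense gene over Ltc4s, RP23-319B15.9, held 846 counts against 114000 for Ltc4s, and whether counting used the strand is not given in the sources used here.

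Alox5ap (ENSMUSG00000060063, chromosome 5, 149264767 to 149288153, plus strand), the membrane protein that presents arachidonic acid to Alox5, fell slightly. Its lowest, median and highest levels were 228, 334 and 435 CPM on DNL919 day 1, against 358, 444 and 510.5 CPM in ATV:DNP02. The groups overlapped, with 5 of 8 DNL919 day 1 libraries below all ATV:DNP02 libraries. The log2 fold change was -0.37 ± 0.14 (SE; adjusted p = 0.0418). This call was lost when DNL919 day 1 replicate 2 (adjusted p = 0.0526), DNL919 day 1 replicate 5 (0.0757), ATV:DNP02 replicate 2 (0.0506), ATV:DNP02 replicate 5 (0.0728) or ATV:DNP02 replicate 6 (0.102) was left out, by edgeR's quasi-likelihood test (0.0709), without the batch term (0.0511), in females only (0.169) and in males only (0.207). In batch 2 alone the difference was 0.13, of the opposite sign, and in the other batches it was -0.55, -0.88 and -0.11. Against Vehicle, with levels of 422, 464 and 489 CPM, the log2 fold change was -0.45 ± 0.16 (SE; adjusted p = 0.0236).

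Alox5 (ENSMUSG00000025701, chromosome 6, 116410077 to 116461178, minus strand), the lipoxygenase of the branch, was scarce. Its lowest, median and highest levels were 2.89, 10.0 and 17.4 CPM on DNL919 day 1, against 0.851, 7.96 and 16.4 CPM in ATV:DNP02 and 2.54, 11.0 and 21.9 CPM in Vehicle, from 8 to 110 counts a library on day 1. The groups overlapped over most of their range. The log2 fold change was 0.32 ± 0.45 against ATV:DNP02 (SE; adjusted p = 0.615) and 0.04 ± 0.49 against Vehicle (SE; adjusted p = 0.958). At this depth no difference was detectable, and its direction changed between settings.

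Ptgs1 (ENSMUSG00000047250, chromosome 2, 36230426 to 36252272, plus strand), the constitutive cyclooxygenase, had lowest, median and highest levels of 309, 390 and 656 CPM on DNL919 day 1. They were 461, 570 and 783 CPM in ATV:DNP02 and 355, 576 and 751 CPM in Vehicle. On day 1, 6 of 8 libraries lay below all ATV:DNP02 libraries, and the highest was DNL919 day 1 replicate 5. Ptgs1 fell with a log2 fold change of -0.51 ± 0.16 against ATV:DNP02 (± SE, with adjusted p = 0.00897) and of -0.51 ± 0.17 against Vehicle (SE; adjusted p = 0.0189), a call lost without the batch term (0.0533). With the noncoding share as a covariate the value against ATV:DNP02 was -1.10 (adjusted p = 2.05e-05), and in males only it was -0.28 (adjusted p = 0.611).

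Ptgs2 (ENSMUSG00000032487, chromosome 1, 150100031 to 150108227, plus strand), the inducible cyclooxygenase, was scarce and varied widely among libraries. It had 5.36, 21.5, 5.90, 9.86, 0.571, 18.6, 10.1 and 0.361 CPM in DNL919 day 1 replicates 1 to 8. In ATV:DNP02 replicates 1 to 8 it had 1.83, 2.15, 1.19, 1.45, 0, 22.6, 0 and 0 CPM, and in Vehicle replicates 1 to 6 it had 9.31, 0.407, 0, 0, 0 and 7.63 CPM. Most DNL919 day 1 libraries were above most controls, but ATV:DNP02 replicate 6 was the highest of the 3 groups and DNL919 day 1 replicates 5 and 8 were near 0. For the libraries at 0, a count of 0 allows up to 1.32 to 1.82 CPM in ATV:DNP02 and 0.953 to 1.73 CPM in Vehicle (3 counts a library, counting error only). The log2 fold change was 1.84 ± 0.88 against ATV:DNP02 (SE; adjusted p = 0.0988) and 2.14 ± 1.08 against Vehicle (SE; adjusted p = 0.128), and neither passed. The first passed in females only (2.09, adjusted p = 0.0485), without DNL919 day 1 replicate 5 (2.44, adjusted p = 0.0205) and without ATV:DNP02 replicate 6 (2.50, adjusted p = 0.0411), and the second without DNL919 day 1 replicate 5 (2.95, adjusted p = 0.0256). ATV:DNP02 replicate 6 also had 611 CPM of neutrophil markers, against at most 399 CPM in the other controls, and the part of these in its Ptgs2 level was not tested.

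Hpgds (ENSMUSG00000029919, chromosome 6, 65117293 to 65144908, minus strand), the haematopoietic prostaglandin D2 synthase, had lowest, median and highest levels of 299, 430 and 578 CPM on DNL919 day 1. They were 626, 737 and 838 CPM in ATV:DNP02 and 617, 720 and 855 CPM in Vehicle. All 8 DNL919 day 1 libraries lay below all 14 controls. Hpgds fell with a log2 fold change of -0.83 ± 0.11 against ATV:DNP02 (± SE, with adjusted p = 6.07e-08) and of -0.79 ± 0.12 against Vehicle (SE; adjusted p = 1.76e-06).

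Hpgd (ENSMUSG00000031613, chromosome 8, 56294585 to 56321043, plus strand), which oxidises prostaglandins to inactive forms, had lowest, median and highest levels of 313, 362 and 506 CPM on DNL919 day 1. They were 477, 683 and 922 CPM in ATV:DNP02 and 551, 581 and 721 CPM in Vehicle. Of the DNL919 day 1 libraries, 7 of 8 lay below all ATV:DNP02 libraries and 8 of 8 below all Vehicle libraries. Hpgd fell with a log2 fold change of -0.85 ± 0.13 against ATV:DNP02 (± SE, with adjusted p = 5.78e-07) and of -0.69 ± 0.14 against Vehicle (SE; adjusted p = 0.000117). A gene on the same strand overlaps Hpgd, RP23-466C10.2, and held 1969 counts against 57630 for Hpgd.

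Ptafr (ENSMUSG00000056529, chromosome 4, 132564067 to 132582683, plus strand), the G protein-coupled receptor for platelet-activating factor, had lowest, median and highest levels of 11.3, 18.5 and 24.3 CPM on DNL919 day 1. They were 30.9, 47.4 and 76.2 CPM in ATV:DNP02 and 30.0, 38.4 and 59.3 CPM in Vehicle. All 8 DNL919 day 1 libraries lay below all 14 controls. Ptafr fell with a log2 fold change of -1.36 ± 0.22 against ATV:DNP02 (± SE, with adjusted p = 2.75e-06) and of -1.15 ± 0.24 against Vehicle (SE; adjusted p = 0.000236). The within-batch differences from ATV:DNP02 were -0.98, -1.72, -1.45 and -1.62.

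**Figure D3:**
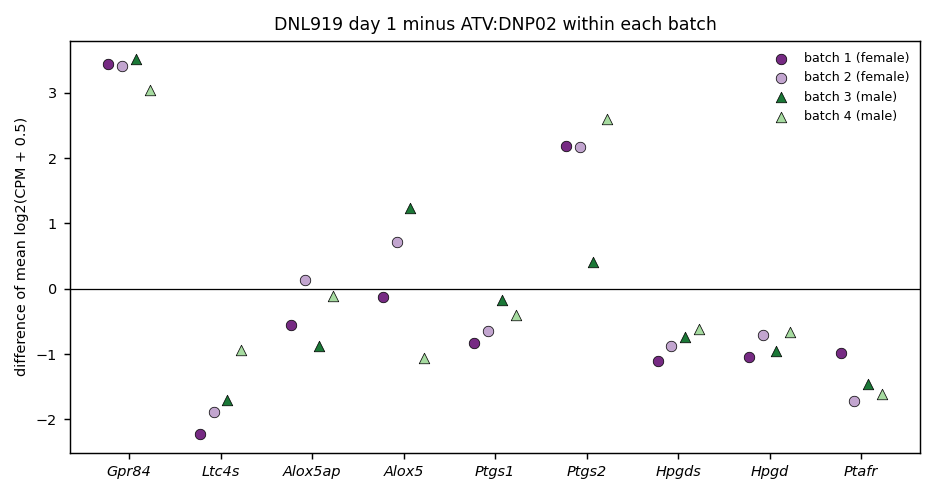
Difference of mean log2(CPM + 0.5) between DNL919 day 1 and ATV:DNP02 (vertical axis) for each gene (horizontal axis) within each batch, 2 libraries a group; circles are female batches, triangles male batches. Gpr84 and Ptgs2 are above 0 in all 4 batches, Ptgs2 on few counts. Ltc4s, Ptgs1, Hpgds, Hpgd and Ptafr are below 0 in all 4 batches, while Alox5 and Alox5ap change sign.

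Against Vehicle on day 1, 7 of the 9 genes were called as well, 1 higher and 6 lower, with a background of 33.4% of all genes tested. The DNL919 libraries are the same in both comparisons, so they are not independent. Among males alone 2 of the 9 genes were called against Vehicle and 5 against ATV:DNP02, where 6.79% and 8.44% of all genes were called. Among females alone 7 were called in each comparison. Of the 11417 genes tested in females, 2947 were called against Vehicle and 3556 against ATV:DNP02. Leaving out both libraries with high neutrophil markers left 7 called in each comparison. Of the 11078 genes tested there, 4098 were called against ATV:DNP02 and 3821 against Vehicle. The control groups themselves did not differ by the test. ATV:DNP02 against Vehicle gave 0 of the 9 genes and 0% of all genes by limma-voom, with 498 genes at an unadjusted p under 0.05, 0 genes by edgeR and 2 by DESeq2. The log2 fold changes of the 9 genes ran from -0.28 (Alox5) to 0.29 (Ptgs2).

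Promoter sequences of 8 of the 9 genes were read from RefSeq (GRCm38.p6), and Alox5ap was not matched. They are shown because Gpr84 and 3 of the genes that fell shared a motif. The 250 bases before each start were searched on both strands for AGGAAGT (PU.1, a transcription factor that sets myeloid identity), TTGCNNAA (C/EBP), GAAANNGAA (interferon response), TGACGTCA (CRE), TGANTCA (AP-1) and the NF-kB motif. These letters were chosen with the promoters at hand. AGGAAGT was found in Gpr84, Ltc4s, Hpgds and Ptgs1, that is in 4 of 8, against 7.69% of 32851 promoters of the same length, which include several starts for some genes. These promoters were not limited to the genes tested here, for which the share was not computed. The match began 63, 117, 48 and 23 bases before the start. In the stretches below, 5′ to 3′ on the strand of the gene, capitals mark the match.
Gpr84, chr15:103310484-103310512, minus strand: ggaggtggggaAGGAAGTggctaaggttg
Ltc4s, chr11:50238632-50238660, minus strand: gaacaactggaAGGAAGTggtcaagctgt
Hpgds, chr6:65144761-65144789, minus strand: cttttaggtggAGGAAGTggcctctggct
Ptgs1, chr2:36230392-36230420, plus strand: ggctggagcagAGGAAGTtggcggtcagc

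The start that RefSeq gives for Gpr84, Hpgds and Ltc4s lies inside the bounds of the gene model that came with the counts. The matches of Gpr84 and Hpgds lie inside these bounds as well, so they are transcribed in that model, and that of Ltc4s lies outside. The bounds do not show which bases are exons. Gpr84 rose while the other 3 fell, so the match does not separate the directions. The C/EBP letters were found in 2 of 8, Hpgds and Ptgs2, against 9.56% of all promoters, and that of Ptgs2 began 69 bases before its start.
Ptgs2, chr1:150099951-150099980, plus strand: cgctgcggttcTTGCGCAActcactgaagc
Hpgds, chr6:65144888-65144917, minus strand, match on the opposite strand: gactttactctTTATGCAAatacgttggac
The other 4 motifs were found in 0 of 8, and in 1.55% to 7.13% of all promoters. A match is a run of letters and no evidence of binding, and its absence says only that these letters are not in this window.

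On day 4 and day 7, Gpr84 was the only 1 of the 9 genes that passed against either control. Against ATV:DNP02 1 of 9 passed on each day, where 1.81% and 1.51% of all genes were called, and against Vehicle 1 of 9 passed on each day, where 1.08% and 0.965% were called. The lowest, median and highest levels of Gpr84 were 126, 465 and 705 CPM on day 4 and 169, 407 and 614 CPM on day 7. On day 4, 7 of 8 libraries lay above all ATV:DNP02 libraries, and on day 7 5 of 8 did. The low library of day 4 was replicate 6, which carried neutrophil markers. Against ATV:DNP02 the log2 fold change was 1.08 ± 0.23 on day 4 (SE; adjusted p = 0.00402) and 0.98 ± 0.23 on day 7 (SE; adjusted p = 0.0127). Against Vehicle it was 1.32 ± 0.25 on day 4 (SE; adjusted p = 0.00303) and 1.23 ± 0.26 on day 7 (SE; adjusted p = 0.00752). Within batches the differences from ATV:DNP02 were 1.49, 1.10, 0.67 and 0.90 on day 4 and 1.08, 1.18, 1.10 and 0.29 on day 7.

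In other settings further genes passed on these days. With the noncoding share as a covariate Ptgs1 passed on day 4 against ATV:DNP02 (log2 fold change -0.62, adjusted p = 0.0109) and Vehicle (-0.72, adjusted p = 0.0193), and Hpgd on day 7 against ATV:DNP02 (-0.49, adjusted p = 0.0475). Without the low-count filter, against ATV:DNP02, Hpgds passed on day 4 (-0.41, adjusted p = 0.00248) and day 7 (-0.32, adjusted p = 0.0293), and Hpgd (-0.41, adjusted p = 0.0282) and Ltc4s (-0.53, adjusted p = 0.0274) passed on day 7. Elsewhere only Hpgds, Ltc4s, Hpgd and Alox5ap joined Gpr84, each in the negative direction.

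The later Gpr84 calls were less stable than that of day 1. With the noncoding share as a covariate the log2 fold change against ATV:DNP02 was 0.51 on day 4 (adjusted p = 0.0643) and 0.33 on day 7 (adjusted p = 0.366). The calls against ATV:DNP02 were also lost without a batch term (0.0830 and 0.189), without the low-count filter (0.291 and 0.337) and in males only (0.885 and 0.687), where 0.0176% and 0% of all genes were called. Against Vehicle they were lost with the noncoding share (0.114 and 0.412), without the filter (0.248 and 0.408) and in males only (0.990 and 0.906, with 0% and 0.00882% of all genes called). The day 7 call was also lost without the batch term (0.0907). The day 7 call against ATV:DNP02 was lost without DNL919 day 7 replicate 3 (0.0564), DNL919 day 7 replicate 5 (0.0548) or ATV:DNP02 replicate 5 (0.0594). Without both libraries of high neutrophil markers the day 4 value was 1.28 (adjusted p = 2.69e-05).

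**Figure D4:**
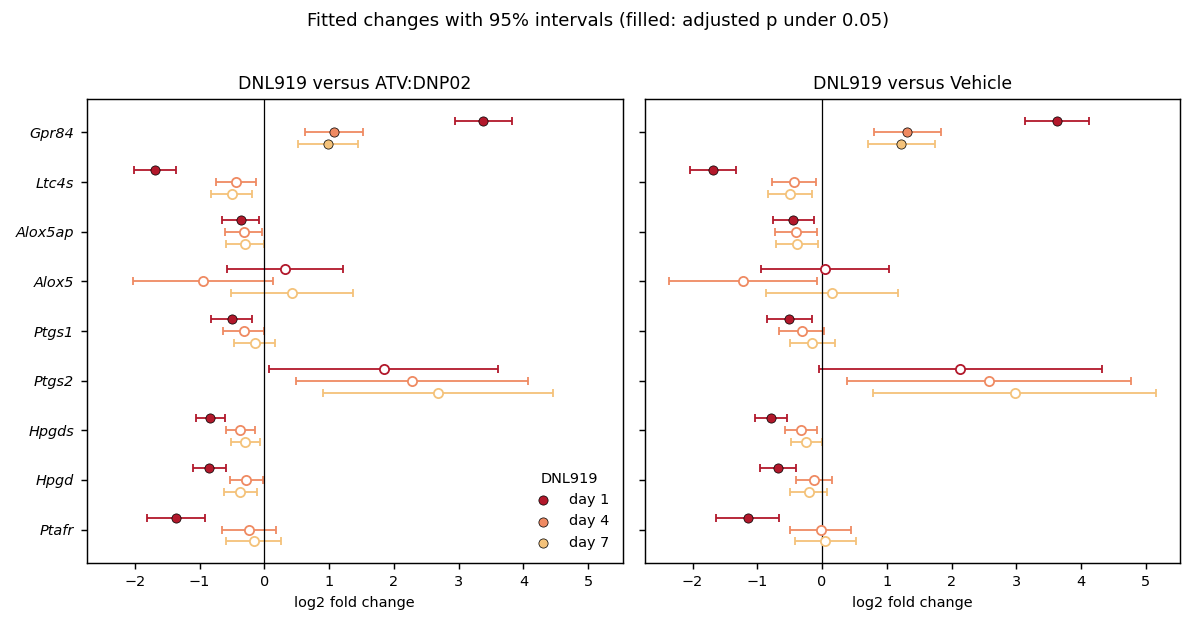
Fitted log2 fold change (horizontal axis, with 95% intervals) of each gene for DNL919 day 1, 4 and 7 against ATV:DNP02 (left) and Vehicle (right); filled points passed the adjusted threshold of 0.05. Filled points are many on day 1, and on days 4 and 7 only Gpr84 is filled, at 1.08 and 0.98 against ATV:DNP02.

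The other 8 genes did not pass on the later days. Ltc4s had lowest, median and highest levels of 845, 1173 and 1319 CPM on day 4 and 705, 1069 and 1446 CPM on day 7, and 6 of 8 and 5 of 8 libraries lay below all ATV:DNP02 libraries. Its log2 fold change against ATV:DNP02 was -0.44 ± 0.16 on day 4 (SE; adjusted p = 0.166) and -0.50 ± 0.16 on day 7 (SE; adjusted p = 0.110). On day 4 all 8 Ltc4s libraries lay below all 6 Vehicle libraries, with a log2 fold change of -0.43 ± 0.17 that did not pass (SE; adjusted p = 0.259). DNL919 day 1 replicate 8 enters the same fit. Without it the Ltc4s values against ATV:DNP02 passed (-0.48, adjusted p = 0.0288 on day 4 and -0.53, adjusted p = 0.0149 on day 7). That against Vehicle on day 7 passed as well (-0.51, adjusted p = 0.0496). The day 7 value against ATV:DNP02 also passed without DNL919 day 1 replicate 1 (-0.53, adjusted p = 0.0498) or ATV:DNP02 replicate 3 (-0.58, adjusted p = 0.0470).

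Hpgds had lowest, median and highest levels of 466, 554 and 723 CPM on day 4 and 520, 582 and 679 CPM on day 7. Its log2 fold change against ATV:DNP02 was -0.37 ± 0.11 on day 4 (SE; adjusted p = 0.0687) and -0.29 ± 0.11 on day 7 (SE; adjusted p = 0.241). The day 4 value passed in 8 of 12 other settings and in 25 of 38 fits with a library left out, so it lay at the threshold. Hpgd had 468, 538 and 678 CPM on day 4 and 357, 558 and 611 CPM on day 7. Its log2 fold change against ATV:DNP02 was -0.28 ± 0.13 on day 4 (SE; adjusted p = 0.338) and -0.37 ± 0.13 on day 7 (SE; adjusted p = 0.155). The day 7 value passed without ATV:DNP02 replicate 3 (-0.46, adjusted p = 0.0417).

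Ptafr had 33.0, 41.0 and 47.8 CPM on day 4 and 22.3, 49.2 and 60.5 CPM on day 7, within the range of the controls except for the lowest library of day 7, replicate 7. Its log2 fold change against ATV:DNP02 was -0.23 ± 0.21 on day 4 (SE; adjusted p = 0.736) and -0.16 ± 0.21 on day 7 (SE; adjusted p = 0.839). Ptgs1 had a median of 446 CPM on day 4 and 503 CPM on day 7, with log2 fold changes of -0.32 ± 0.16 and -0.15 ± 0.16 (SE; adjusted p = 0.404 and 0.794). Alox5ap had medians of 350 and 369 CPM, with log2 fold changes of -0.32 ± 0.15 and -0.30 ± 0.15 (SE; adjusted p = 0.343 and 0.405). DNL919 day 7 replicate 7, the library with the most neutrophil markers, had the highest Alox5ap (491 CPM) and the highest Ptgs2 (32.1 CPM) of day 7 and also the lowest Ptafr (22.3 CPM). Its monocyte markers summed to 3161 CPM, against at most 377 CPM elsewhere, and their part in these levels was not tested.

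Ptgs2 had lowest, median and highest levels of 0, 8.43 and 18.7 CPM on day 4 and 1.81, 7.69 and 32.1 CPM on day 7. Its log2 fold change against ATV:DNP02 was 2.28 ± 0.89 on day 4 (SE; adjusted p = 0.230) and 2.68 ± 0.88 on day 7 (SE; adjusted p = 0.135). The control counts were few, with 73 counts over the 8 ATV:DNP02 libraries, 54 of them in replicate 6. Alox5 had medians of 4.08 CPM on day 4 and 9.85 CPM on day 7, with log2 fold changes of -0.95 ± 0.53 and 0.43 ± 0.47 against ATV:DNP02 (SE; adjusted p = 0.496 and 0.804).

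Day 4 against day 1 compares DNL919 groups with each other. The controls enter the fit through the batch terms, the shared spread, the low-count filter and the scaling. Here 6 of the 9 genes passed, 4 higher and 2 lower on day 4, with a background of 31.9% of all genes (13.8% higher and 18.1% lower). Gpr84 fell by 2.31 ± 0.21 on the log2 scale (SE; adjusted p = 1.28e-11), and all 8 day 4 libraries lay below all 8 day 1 libraries. Ltc4s rose by 1.25 ± 0.16 (adjusted p = 4.60e-08), Ptafr by 1.13 ± 0.22 (adjusted p = 8.55e-05), Hpgd by 0.57 ± 0.13 (adjusted p = 0.000433) and Hpgds by 0.46 ± 0.11 (adjusted p = 0.00124), all on the log2 scale with SE. Every Ptafr library of day 4 lay above every one of day 1. The within-batch differences were -1.95, -2.32, -2.84 and -2.14 for Gpr84 and 1.63, 1.61, 1.22 and 0.54 for Ltc4s. Alox5 had a log2 fold change of -1.27 ± 0.51 (± SE, with adjusted p = 0.0497) and was called in only 2 of 12 other settings. It was lost in 21 of 38 fits with a library left out, over which its value ran from -1.55 to -0.99, and without both libraries of high neutrophil markers (-1.22, adjusted p = 0.0866). In males alone 2 of the 9 genes were called, where 5.71% of all genes were. In females alone 5 of the 9 genes were called, with 2858 of 11417 genes called. Alox5ap, Ptgs1 and Ptgs2 had log2 fold changes of 0.05, 0.19 and 0.44, which did not pass.

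Day 7 against day 4 gave 0 of the 9 genes and 0% of all genes by limma-voom, with 483 genes at an unadjusted p under 0.05, 0 by edgeR and 1 by DESeq2. The largest value was that of Alox5, 1.38 ± 0.52 (log2, SE; adjusted p = 0.999). The test of a sex difference in the day 1 values against ATV:DNP02 likewise gave 0 of 9 and 0% of all genes, with 609 genes at an unadjusted p under 0.05, 0 by edgeR and 8 by DESeq2.

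The genes around these 9 in the same pathways were followed in 7 lists of 81 genes, of which 79 were in the files and 43 were tested. On day 1 against ATV:DNP02, 9 of the 43 rose and 7 fell, which is 37.2% against the background of 35.8%, and their median log2 fold change was -0.03. On day 4 and on day 7, 0 of them rose and 1 fell, or 2.33% against backgrounds of 1.81% and 1.51%. In the supply of arachidonic acid 3 of 14 rose and 2 fell. The cytosolic phospholipase Pla2g4a, which frees arachidonic acid from membranes, was higher on day 1 (0.42 ± 0.16, adjusted p = 0.0405) and lower on day 4 (-0.70 ± 0.18, adjusted p = 0.0242) and day 7 (-0.66 ± 0.18, adjusted p = 0.0454), all log2 fold changes with SE. Its level had a median of 94.2 CPM on day 1 against 60.9 CPM with ATV:DNP02, and these calls held in 17, 36 and 26 of 38 fits with a library left out and in 6, 8 and 6 of 12 other settings. The later calls were both lost without the batch term, with the noncoding share, in females only and in males only, and that of day 1 was lost with each other scaling, with only the groups compared and in each sex alone. The monoacylglycerol lipases Mgll and Abhd6, which also feed arachidonic acid through endocannabinoids, fell, with log2 fold changes of -1.24 ± 0.23 (adjusted p = 3.08e-05) and -0.89 ± 0.15 (adjusted p = 5.40e-06). Plaa, a phospholipase A2 activating protein, had 0.74 ± 0.30 (adjusted p = 0.0487), a call that held in 12 of 38 such fits.

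In the synthesis and export of prostanoids 3 of 9 rose and 0 fell on day 1 against ATV:DNP02. That is 33.3% called, near the 35.8% of all genes tested (20.8% higher and 15% lower). The prostaglandin E synthase Ptges3, also known as the co-chaperone p23, had levels of 61.4 to 140 CPM on DNL919 day 1, against 22.8 to 47.7 CPM in ATV:DNP02, with no overlap, and a log2 fold change of 1.62 ± 0.20 (± SE, with adjusted p = 1.73e-08). The aldose reductase Akr1b3, which can make prostaglandin F2α, had medians of 10.7 CPM and 1.98 CPM and a log2 fold change of 2.23 ± 0.53 (± SE, with adjusted p = 0.000844), which was not called by edgeR. Ptges2, a further prostaglandin E synthase, had 0.92 ± 0.37 (adjusted p = 0.0488), which held in 12 of 38 fits with a library left out. Of 2 prostanoid receptors tested, Ptger4, a receptor for prostaglandin E2, rose. Its lowest, median and highest levels were 0.723, 6.86 and 25.7 CPM on DNL919 day 1. In ATV:DNP02 they were 0, 0 and 1.59 CPM, and 5 of 8 libraries had no count. The day 1 libraries held 352 counts, 180 of them in 1 library, and those of ATV:DNP02, of lower depth, held 11. The log2 fold change of Ptger4 was 3.65 ± 0.73 (SE; adjusted p = 9.08e-05).

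Among the other leukotriene and lipoxygenase enzymes 0 of 6 rose and 2 fell, with a median log2 fold change of 0.09. That is 33.3% called, near the 35.8% of all genes tested. The epoxide hydrolase Ephx1 had a log2 fold change of -1.88 ± 0.44 (± SE, with adjusted p = 0.000663), and Ggt5, which converts leukotriene C4 to leukotriene D4, had -1.07 ± 0.39 (SE; adjusted p = 0.0301), a call that held in 31 of 38 fits with a library left out. Of 2 leukotriene and resolving mediator receptors tested, Cysltr1, the receptor for the cysteinyl leukotrienes that descend from leukotriene C4, fell. Its medians were 79.2 CPM on DNL919 day 1, against 165 CPM in ATV:DNP02, with a log2 fold change of -1.02 ± 0.21 (± SE, with adjusted p = 0.000118), and it was called in all 12 other settings.

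In platelet-activating factor synthesis and breakdown 1 of 6 rose and 1 fell, which is 33.3% against 35.8% of all genes tested. Pafah1b3, a catalytic subunit of a hydrolase of platelet-activating factor, had a log2 fold change of -1.15 ± 0.28 (± SE, with adjusted p = 0.000920). Lpcat2, which makes platelet-activating factor in inflammatory cells, had 0.40 ± 0.16 (SE; adjusted p = 0.0497), a call that held in 7 of 38 fits with a library left out. Of 4 fatty acid and hydroxy acid receptors tested besides Gpr84, 1 rose and 1 fell, which is 50% of few genes. Hcar2, a receptor for niacin and ketone bodies, had 20.0 to 32.6 CPM on DNL919 day 1, against 2.61 to 10.9 CPM in ATV:DNP02, with no overlap, and a log2 fold change of 2.22 ± 0.50 (± SE, with adjusted p = 0.000433). Ffar1, a receptor for long-chain fatty acids, had 60 counts over the DNL919 day 1 libraries and 125 over those of ATV:DNP02, with a log2 fold change of -1.68 ± 0.58 (± SE, with adjusted p = 0.0191). On day 1, with the noncoding share as a covariate, Ptger4, Akr1b3, Ptges2, Plaa, Lpcat2, Hcar2, Ffar1 and Ggt5 were no longer called. Ptges3, Cysltr1, Mgll, Abhd6, Ephx1, Pafah1b3 and Pla2g4a still were. Of all 11189 genes, 2170 were called in that fit, against 4007 in the main fit.

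**Figure D5:**
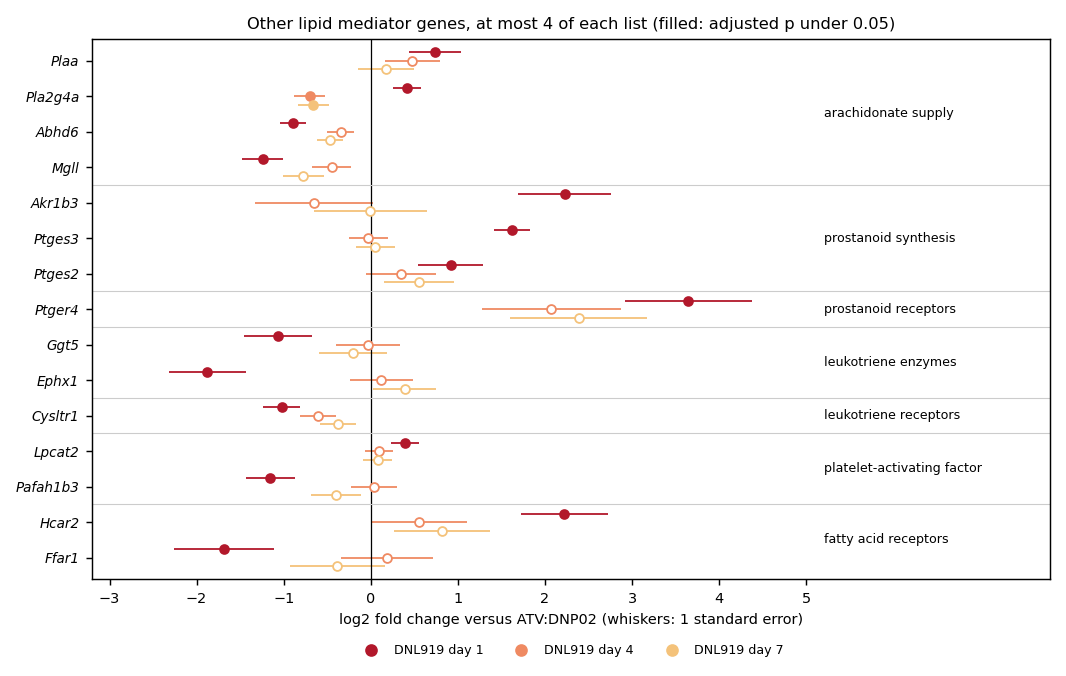
Fitted log2 fold change against ATV:DNP02 (horizontal axis, whiskers 1 SE) of the named pathway genes (vertical axis, grouped by list) on DNL919 day 1, 4 and 7; filled points passed the adjusted threshold of 0.05. Most filled points are those of day 1, from 3.65 for Ptger4 to -1.88 for Ephx1, and Pla2g4a is the gene filled on days 4 and 7.

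The genes whose pattern was nearest to each of the 9 were found by the Euclidean distance over 4 fitted log2 fold changes, those of DNL919 day 1, 4 and 7 and Vehicle against ATV:DNP02. Since all 4 share the ATV:DNP02 libraries, this is a description with no test. Nearest to Gpr84 were Slc1a5, a glutamine carrier (distance 0.436), the cytokine Tnf (0.467) and the actin capping protein Capg (0.516). Nearest to Ltc4s were Brd9 (0.104) and Cnot3 (0.120), nearest to Ptafr were Polr3gl (0.145) and Arnt (0.149), and nearest to Hpgds was Tacc1 (0.0639) and nearest to Hpgd was Rai1 (0.0600). Ptgs1 was nearest to Rbm7 (0.0986), Alox5ap to Ctbp2 (0.0789) and Alox5 to Desi1 (0.146). Ptgs2 had no near neighbour, with Lgals3bp the nearest at 0.807.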

How the data were processed

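Microglial RNA of 38 libraries was analysed from the processed tables. Per the labels, libraries were made with the SMARTSeq v4 3′ DE and Nextera XT kits. The submitters' processing notes name STAR, GRCm38.p6 and Subread 1.6.2, whose featureCounts assigns reads to genes. The annotation release, the strand setting and the handling of PCR duplicates are not given in the sources used here. The deposited raw counts have at most 2 significant digits, and counts of 100 or more, which make up 6.48% of all values and 91.3% of the summed counts, are therefore approximate. The authors also deposited a library size (in counts) and an edgeR scaling factor, a ratio to that size, per library. These factors were used in an alternative only, and the deposited sheet of CPM was not used.

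CPM was computed from the counts on TMM effective library sizes. Genes past edgeR's low-count filter (minimum count 10, total 15, proportion 0.7; 11189 of 53801) were tested two-sided with limma-voom (R 4.3.3, edgeR 4.0.16 and limma 3.58.1), with group and batch as terms over all 38 libraries and Benjamini-Hochberg adjustment at 0.05. The sex difference was fitted with group by sex. The fitting code was first run on simulated counts with known changes. Alternatives were median-of-ratios factors, library totals, the authors' factors, no filter, no batch term, the noncoding share as a covariate, only the groups compared, females or males only, edgeR's quasi-likelihood test, DESeq2 1.42.0, each batch alone and each library left out. Leaving out both libraries with high neutrophil markers was added after seeing the data. Depth was 1.65 to 6.42 M counts, and intervals and floors of 3 counts cover counting error only. No pair of libraries within a group was identical. Nothing in the labels says whether libraries are 1 per mouse. The paper describes its bulk RNA-seq values of isolated microglia as biological replicates and counts them in mice. The p-values measure the spread between these libraries.

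The 9 genes and the gene lists were chosen with earlier results of these data known. Named were all 9 genes, at most 4 genes of each pathway list with the largest change among those called against ATV:DNP02, and for each of the 9 the 3 genes nearest in pattern, of which the text gives 1 to 3.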

Additional observations from a re-analysis of the deposited data

Results flagged for a closer look

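In 45 groups of levels (9 genes in 5 groups), 4 held 1 library far from the others of its group by Dixon's criterion on log2(CPM + 1), which chance alone exceeds in about 1 in 20 groups. Gpr84 in DNL919 day 1 replicate 8 was low, at 831 CPM, with the next lowest at 1793 CPM. Alox5 in ATV:DNP02 replicate 5 was low, at 0.851 CPM, with the next lowest at 6.30 CPM. Ptgs2 in ATV:DNP02 replicate 6 was high, at 22.6 CPM, with the next highest at 2.15 CPM. Ptgs2 in DNL919 day 4 replicate 7 was low, at 0 CPM, with the next lowest at 5.22 CPM. The report gives the fits without the first and the third.

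Levels after DNL919 differed between day 1 and day 4 in 6 of the 9 genes, where 31.9% of all genes were called. This is the direct comparison of day 4 with day 1 libraries in the same fit. No control was collected on day 4, so it does not separate day from antibody. The log2 fold changes were -2.31 for Gpr84, -1.27 for Alox5, 1.25 for Ltc4s, 0.46 for Hpgds, 0.57 for Hpgd and 1.13 for Ptafr. The value of Alox5 rests on few counts, 109 over the 8 libraries of day 4, and lay at the threshold.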

How the results depend on the processing

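On day 1 against ATV:DNP02, the calls of Gpr84, Ltc4s, Hpgds, Hpgd and Ptafr held in all 12 refits and in all 38 fits with a library left out. The log2 fold change ran over the refits from 2.19 to 3.44 for Gpr84, -2.10 to -1.34 for Ltc4s, -1.02 to -0.70 for Hpgds, -1.06 to -0.83 for Hpgd and -1.49 to -1.32 for Ptafr. Counts are rounded, and Ptgs2 and Alox5 rest on few of them. The fits by sex have fewer libraries than the main fit, with as many females as males in each group. On day 1 against ATV:DNP02, 3556 of 11417 genes were called in females only and 956 of 11333 in males only. The cause of this difference and of the other changes was not tested. Without the filter the median of all genes on day 1 moved to -0.43, and with library totals to -0.10, from 0.01. No paired analysis was possible because the labels number no replicates, and the batch is already a term of the fit.

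The number of the 9 genes called on day 4 against ATV:DNP02, 1 in the report, was 2 with median-of-ratios factors, the authors' factors, females only, DESeq2 and without both libraries of high neutrophil markers, 3 with library totals and only the groups compared, 0 without the batch term and in males only, and 1 to 3 with a library left out. On day 7 against ATV:DNP02 it was 3 with library totals and without the filter, 2 with only the groups compared and DESeq2, 0 without the batch term and in males only, and 0 to 3 with a library left out, against 1. Against Vehicle on day 4 it was 2 with library totals and DESeq2 and 0 without the filter and in males only, against 1. Against Vehicle on day 7 it was 0 without the filter, without the batch term, with the noncoding share and in males only, and 1 to 2 with a library left out, against 1. In males only, where 6.79% and 5.71% of all genes were called, it was also 2 on day 1 against Vehicle, where the report has 7, and 2 for day 4 against day 1, where it has 6. The other counts over the 9 genes stayed within 1.5 times. The calls over all genes moved with the setting too. Against ATV:DNP02 they ran from 2 in males only to 357 with the noncoding share on day 4, with 202 in the report. On day 7 they ran from 0 in males only to 252 by DESeq2, with 169 in the report. Against Vehicle they ran from 0 in males only to 247 by DESeq2 on day 4, with 121 in the report. On day 7 these settings gave 1 and 247, with 108 in the report. In males only 12 of the 15 named pathway genes were not called on day 1 against ATV:DNP02. Of all genes, 8.44% were called there, against 35.8% in the report.

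Signs changed as follows, as log2 fold changes. Of these only Alox5ap in batch 2 alone (0.13) and Lpcat2 (-0.55) and Ptges2 (-1.23) after adjusting for the noncoding share, all on day 1 against ATV:DNP02, belong to a called result. Alox5 on day 1 against Vehicle was -0.10 with library totals, -0.077 without the batch term, -1.41 with the noncoding share, -0.025 with only the groups compared, -0.62 in males, -0.24 by edgeR and -0.25 by DESeq2. On day 7 against Vehicle Alox5 was -0.84 with the noncoding share and -0.076 by edgeR and -0.082 by DESeq2. Against ATV:DNP02 Alox5 was -0.90 on day 1 and -0.33 on day 7 with the noncoding share and -0.23 on day 7 in females. The sex difference of Alox5 was -0.42 by edgeR and -0.44 by DESeq2, and that of Gpr84 was 0.046 without the filter. Between ATV:DNP02 and Vehicle, Ptgs1 was -0.0048 with median-of-ratios factors, -0.011 with library totals, -0.11 with the noncoding share, -0.019 with only the groups compared, -0.029 in males, -0.013 by edgeR and -0.015 by DESeq2. There Ltc4s was -0.00089 with library totals, -0.00030 without the filter, -0.0010 with the noncoding share, -0.060 in females and -0.0054 by DESeq2, Ptafr was -0.050 and Alox5 0.36 in females, and Alox5ap was 0.032 in males. Ptafr on day 7 was 0.15 against ATV:DNP02 in females and -0.047 against Vehicle in males. For day 7 against day 4, females gave -0.80 for Ptgs2, 0.13 for Hpgd and 0.18 for Ltc4s, males gave -0.027 for Ptafr and -0.032 for Alox5ap, and leaving out both libraries of high neutrophil markers gave -0.094 for Alox5ap. For day 4 against day 1, males gave -0.0046 for Alox5ap.

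With 1 library left out, none of the values that changed sign was called. On day 1 Alox5 ran from -0.087 to 0.54 against ATV:DNP02 and from -0.49 to 0.29 against Vehicle. Against Vehicle, Ptafr ran from -0.16 to 0.081 on day 4 and from -0.082 to 0.19 on day 7, and Alox5 from -0.40 to 0.40 on day 7. Between ATV:DNP02 and Vehicle, Ptgs2 ran from -0.40 to 1.06, Ptgs1 from -0.13 to 0.095, Alox5 from -0.78 to 0.093 and Ltc4s from -0.067 to 0.088. For day 4 against day 1, Ptgs2 ran from -0.14 to 0.93 and Alox5ap from -0.047 to 0.091. For day 7 against day 4, Ptafr ran from -0.0096 to 0.25, Alox5ap from -0.055 to 0.13, Ltc4s from -0.10 to 0.028 and Gpr84 from -0.32 to 0.0061. The sex difference ran from -1.62 to 1.18 for Ptgs2, -0.40 to 0.0042 for Ptafr, -0.59 to 0.92 for Alox5, -0.039 to 0.17 for Hpgd and -0.37 to 0.13 for Gpr84.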
